A study of Mus musculus with 8 samples.

Results

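Lipid-making genes were followed through single-cell RNA sequencing of cells sorted from the fat and the mesentery of mice. The 9 genes are Fasn, Acaca, Acly, Scd1, Elovl6, Dgat1, Dgat2, Srebf1 and Pck1, which cover de novo lipogenesis and triglyceride synthesis. They were chosen by symbol, and all 9 were found among the 30406 gene identifiers that both sequencing runs share. All mice were male ROSA26-eYFP+/+ Cdh5-CreERT2+ animals, in which Cre driven by the endothelial gene Cdh5 switches on the reporter YFP once tamoxifen is given. Every group, the chow controls included, was fed tamoxifen for 2 weeks, starting at an age of 6 weeks. At 8 weeks the mice went on to chow with 5.8% fat or to a high fat diet with 60% fat, and stayed on it for 12 to 13 weeks. With 2 tissues, mesentery and epididymal adipose, this gives 4 groups. Each library pooled the tissue of 6 mice, the digestion contained actinomycin D, YFP-positive cells were sorted, and each group has 1 library from run A and 1 from run B. No source used here states the sort gate.

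Cells make fatty acids from citrate. Acly splits cytosolic citrate into acetyl-CoA, Acaca turns acetyl-CoA into malonyl-CoA, and Fasn builds palmitate from both. Elovl6 lengthens palmitate and Scd1 places a double bond in the product. Dgat1 and Dgat2 add the last fatty acid to diacylglycerol to give triglyceride, and Pck1 supplies glycerol phosphate from small precursors in fat cells that take up little glucose. Srebf1 encodes the transcription factor SREBP-1, which drives many of these genes when insulin is high. Fat cells are a known site of this pathway, and endothelial cells line vessels and pass fatty acids to the tissue around them.

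The members lie on 6 mouse chromosomes. In the GRCm38 annotation Fasn is at chr11:120805846-120824547 on the minus strand, Acaca at chr11:84129672-84401651 on the plus strand and Acly at chr11:100476353-100528000 on the minus strand. Srebf1 is at chr11:60199089-60222581 on the minus strand, which places 4 of the 9 members on chromosome 11. Scd1 is at chr19:44394455-44407879 (minus), Elovl6 at chr3:129532355-129638495 (plus), Dgat1 at chr15:76502015-76511953 (minus), Dgat2 at chr7:99153658-99182719 (minus) and Pck1 at chr2:173153048-173159273 (plus). RefSeq windows upstream of the start were matched for 6 of the 9 members. The 3 printed here belong to Fasn and Pck1, whose levels in endothelial cells differed between libraries by far more than those of Acly, and to Acly itself. Each runs 5′ to 3′ on the strand of its gene (GRCm38.p6). Those of Fasn and Acly end at the last base before the RefSeq start. That of Pck1 ends 25 bases short of it, at the last base before the gene as annotated in GRCm38, and positions are counted from the RefSeq start. Capitals mark ATCACCC (the first letters of a sterol regulatory element) and CCAAT in Fasn, GGGCGG in Acly and TTACGTCA (a cAMP response element) in Pck1, on either strand.
Fasn, chr11:120824548-120824797, minus strand: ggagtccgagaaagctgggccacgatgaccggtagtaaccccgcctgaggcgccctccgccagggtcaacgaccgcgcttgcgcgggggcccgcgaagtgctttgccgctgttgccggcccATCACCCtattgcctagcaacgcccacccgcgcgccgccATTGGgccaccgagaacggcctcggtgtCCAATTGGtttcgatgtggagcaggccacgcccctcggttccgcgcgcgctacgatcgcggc
Acly, chr11:100528001-100528250, minus strand: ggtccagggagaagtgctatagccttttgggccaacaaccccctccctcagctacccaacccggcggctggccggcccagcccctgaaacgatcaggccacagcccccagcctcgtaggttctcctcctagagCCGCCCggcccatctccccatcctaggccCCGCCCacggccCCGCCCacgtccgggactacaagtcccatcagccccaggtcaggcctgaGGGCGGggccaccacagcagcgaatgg
Pck1, chr2:173152823-173153047, plus strand: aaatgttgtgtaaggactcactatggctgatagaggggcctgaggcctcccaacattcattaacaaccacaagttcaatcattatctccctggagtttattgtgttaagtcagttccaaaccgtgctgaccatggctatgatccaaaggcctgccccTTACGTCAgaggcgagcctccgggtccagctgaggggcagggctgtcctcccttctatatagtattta
Motifs were searched on both strands in 32851 RefSeq windows. ATCACCC occurs in 2.28% of them and once in Fasn, with its first base 129 bases before the start. A longer sterol regulatory element, of which these are the first letters, occurs in 0.0731% of the windows. It is in none of those matched for 6 of the 9 members, and Scd1, Dgat1 and Dgat2 had no window to search. CCAAT occurs in 33.8% of the windows and 3 times in Fasn, at 90, 62 and 59 bases before the start, and the last 2 overlap each other and an E-box match (CANNTG, in 66.2% of windows). GGGCGG occurs in 32.7% of the windows and 4 times in Acly, at 117, 88, 76 and 27 bases. TTACGTCA occurs in 0.447% of the windows and once in Pck1, 93 bases before its RefSeq start. A GGGCGG match of Pck1, at 16 bases, lies in the part that is not printed. A match shows only that the letters are there.

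Depth differed mostly between the runs. Run A libraries held 1352 to 2780 barcodes and 3461360 to 6714473 UMIs, and run B libraries held 3189 to 6218 barcodes and 18829960 to 36779289 UMIs. After filters on UMIs, genes, mitochondrial counts and doublets, 23096 of 27944 barcodes remained. Pairs of libraries shared 0 to 10 barcodes. Of the barcodes used, 18490 fell in clusters with endothelial markers, and all 13 of those markers were detected in each library. They include 2520 barcodes of the unnamed cluster 2, led by the haemoglobin genes Hba-a1, Hbb-bs, Hba-a2 and Hbb-bt. Relative to the median UMI count of their library, the median of these 2520 was 0.32. Another 853 formed a cluster named adipocyte-like from 12 adipocyte markers, led by Cfd, Retn, Car3 and Adipoq, with an endothelial marker level under the limit for endothelial clusters. Separately, a barcode was called adipocyte-marked when at least 3 of the 12 markers had a UMI and together made up at least 1% of its UMIs. This gave 2009 barcodes (8.7%), with 1052 more between 0.5 times that limit and the limit and 778 from the limit to 2 times the limit. Run B on chow held nearly all of them, 815 in mesentery and 1186 in adipose, and each of the other 6 libraries held 0 to 4. The 12 markers share no gene with the members.

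Levels are given as counts per 1000000 UMIs (CPM) of the summed cells of a class in a library. Because 3′ libraries count molecules, CPM does not grow with the length of a gene. Levels were highest in adipocyte-like cells for most members. In mesentery on chow B (386 cells) Scd1 reached 6796 CPM, Fasn 2082, Dgat2 1122, Acly 842, Acaca 514 and Pck1 499. Elovl6 (107 CPM), Dgat1 (83.6 CPM) and Srebf1 (73.4 CPM) were the lowest. In adipose on chow B (428 cells) Scd1 again led with 3813 CPM. There Dgat2 (932 CPM) stood above Fasn (675 CPM), followed by Pck1 at 334, Acly at 223, Acaca at 149, Dgat1 at 58.7, Srebf1 at 32.9 and Elovl6 at 21.1. Adiponectin (Adipoq), an adipocyte hormone, stood at 2791 and 2305 CPM in these libraries.

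The cells named adipocyte-like on high fat diet were few. Adipose on high fat diet A held 25, with 0 counts of Fasn and 0 of Adipoq, and none of the 25 was adipocyte-marked. Mesentery on high fat diet B held 4 and adipose on high fat diet B held 0. A comparison of diets within adipocyte-like cells could therefore not be fitted. One more cluster, 19, carried endothelial and adipocyte markers together, in 150 cells of mesentery on chow B and 242 of adipose on chow B. Its median UMI count was 6814 and 7952, against 1387.5 and 1537.5 in adipocyte-like cells. Scd1 there was 4860 and 2511 CPM, Fasn 1552 and 547, and Adipoq 1461 and 1336, so these 3 stood below their level in the adipocyte-like cells of the same library. Srebf1 stood higher there in both libraries (81.4 and 52.7 CPM), and Acaca (166 CPM), Elovl6 (23.0 CPM) and Dgat1 (71.4 CPM) did so in adipose. Whether these barcodes hold 1 cell or 2 was not tested.

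**Figure D1:**
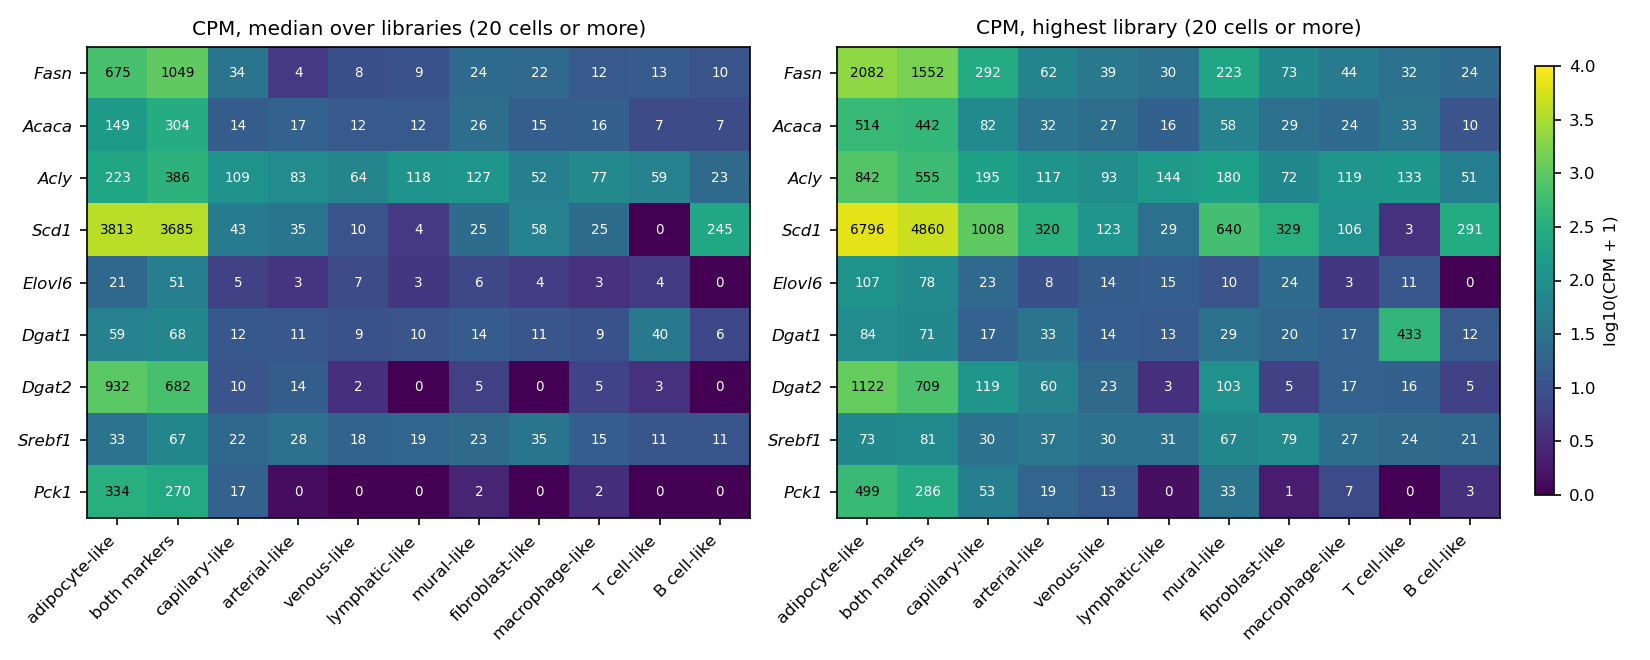
Level of each member (rows) by class of cell (columns), as the median over libraries with at least 20 cells of the class (left) and the highest library (right). Numbers are CPM and colours are log10(CPM + 1). Fasn, Acaca, Acly, Scd1, Elovl6, Dgat2 and Pck1 are highest in adipocyte-like cells or the cluster with both markers in either panel, and Acly has medians of 23.3 to 127 CPM in the remaining classes.

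Cluster 19 is counted among the endothelial cells here, and most of its barcodes drop out where adipocyte-marked ones are left out. The members split by how widely they were found. Acly, the citrate enzyme, had counts in every class, at 66.7 to 143 CPM in endothelial cells (66.7 to 119 CPM without adipocyte-marked barcodes), 101 to 144 CPM in lymphatic-like cells and 37.7 to 117 CPM in arterial-like cells over the 8 libraries. Srebf1 spanned 10.0 to 26.9 CPM and Dgat1 8.86 to 20.3 CPM in endothelial cells, or 10.0 to 24.7 and 8.87 to 13.4 CPM without those barcodes. Pck1 had a median of 0 CPM in venous-like, lymphatic-like and fibroblast-like cells. Its mitochondrial isoenzyme Pck2, which makes phosphoenolpyruvate from a separate gene, was at 15.6 to 41.9 CPM in endothelial cells and at only 4.4 and 10.6 CPM in adipocyte-like cells of the chow B libraries. Srebf2, a relative of Srebf1, likewise stood at 17.1 to 45.6 CPM in endothelial cells and 11.7 and 7.05 CPM in adipocyte-like cells. Those 4 adipocyte-like values rest on few counts, 3 and 9 of Pck2 and 8 and 6 of Srebf2.

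Several other cell classes carried a single member at a high level. Scd1 was at 266, 291, 223 and 154 CPM (33, 114, 74 and 30 counts) in B cell-like cells of the mesentery on chow A, chow B, high fat A and high fat B. T cell-like cells had 0 to 2.73 CPM in libraries with at least 20 of them, while the 6 in adipose on chow B had 9 counts. Fibroblast-like cells of the mesentery had Scd1 at 329 CPM (59 counts) and 238 CPM (238 counts) on chow A and B, and 80.9 CPM (10 counts) and 67.6 CPM (20 counts) on high fat diet. In adipose the fibroblast-like range was 24.5 to 48.2 CPM, so the mesentery libraries lay above those of adipose. Different clusters held these cells in the 2 tissues. Cluster 24 held 67 of 75 and 135 of 169 of them in mesentery on chow A and B, and 31 of 42 and 10 of 30 on high fat diet. It held only 1 to 4 in each adipose library, and cluster 29 was found in adipose alone. The part of the clusters in the difference of Scd1 was not tested. Cfd had at most 24.0 CPM and Adipoq at most 8.01 CPM in fibroblast-like cells. Dgat1 was at 433 CPM in the 24 T cell-like cells of adipose on chow A, from 13 counts. This was 1 library, and the others with at least 20 T cell-like cells had 0 to 79.2 CPM. These levels were described and not tested.

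The number of members per cell followed the same order. With each cell thinned to 1000 UMIs, at least 3 members were detected in 58.84% of adipocyte-like cells and 49.37% of cluster 19, against 3.19% of capillary-like cells, 0.64% of arterial-like, 0.14% of venous-like and 0.11% of lymphatic-like cells. Over all endothelial cells it was 2.56%, with cluster 19 among them. None was detected in 3.4% of adipocyte-like cells and 4.56% of cluster 19, and in 61.32% of capillary-like and 72.46% of all endothelial cells. In macrophage-like, T cell-like and B cell-like cells the share with at least 3 members was 0%.

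The fatty acid steps were higher in mesenteric than in epididymal adipocyte-like cells of run B. Each side is 1 library of 6 pooled mice, so there is no test of the difference, and the 95% intervals cover counting error alone. Elovl6 was 5.07 times as high in the mesentery (2.99 to 9.02, 73 against 18 counts), Acly 3.77 times (3.2 to 4.47), Acaca 3.44 times (2.8 to 4.25) and Fasn 3.08 times (2.8 to 3.4). Srebf1 was 2.23 times as high (1.38 to 3.68) and Scd1 1.78 times (1.7 to 1.86). The triglyceride steps lay closer, with Pck1 at 1.5 times (1.27 to 1.76), Dgat1 at 1.42 times (0.957 to 2.12) and Dgat2 at 1.2 times (1.09 to 1.33). Adipocyte markers gave 1.21 times for Adipoq, 1.57 for Cfd, 1.2 for Plin1, 1.07 for Cidec, 1.15 for Retn and 0.935 for Car3. The ratios of Elovl6, Acly, Acaca, Fasn, Srebf1 and Scd1 thus exceeded those of these 6 markers. The interval of Srebf1, from 1.38, reached below the 1.57 of Cfd. The ratios of Pck1, Dgat1 and Dgat2 lay among those of the markers.

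Cluster 19 had the ratios in nearly the same order. There, Elovl6 was 3.4 times as high in the mesentery (2.43 to 4.79), Fasn 2.84 times (2.65 to 3.04), Acaca 2.67 times, Acly 2.55 times and Scd1 1.94 times, against 1.09 times for Adipoq. Srebf1 was at 1.54 times, Pck1 at 1.12, Dgat2 at 1.08 and Dgat1 at 0.917. Capillary-like cells without adipocyte-marked barcodes also had more Fasn in the mesentery (199 against 70.4 CPM, 2.83 times), with Elovl6 at 2.59 times, Acaca at 1.96, Acly at 1.45, Scd1 at 1.27, Dgat2 at 1.14, Pck1 at 1.11, Dgat1 at 0.993, Srebf1 at 0.799 and Adipoq at 1.07. Other classes varied. Without marked barcodes Fasn was at 1.3 times in arterial-like, 1.05 times in venous-like and 1.27 times in all endothelial cells. Adipoq there was at 0.503, 0.436 and 0.439 times. Fasn was at 2.68 times in mural-like and 4.7 times in lymphatic-like cells (127 against 5 counts). In fibroblast-like cells it was lower in the mesentery, at 0.444 times (0.218 to 0.905). All these classes come from the same pair of libraries and are not independent of each other.

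**Figure D2:**
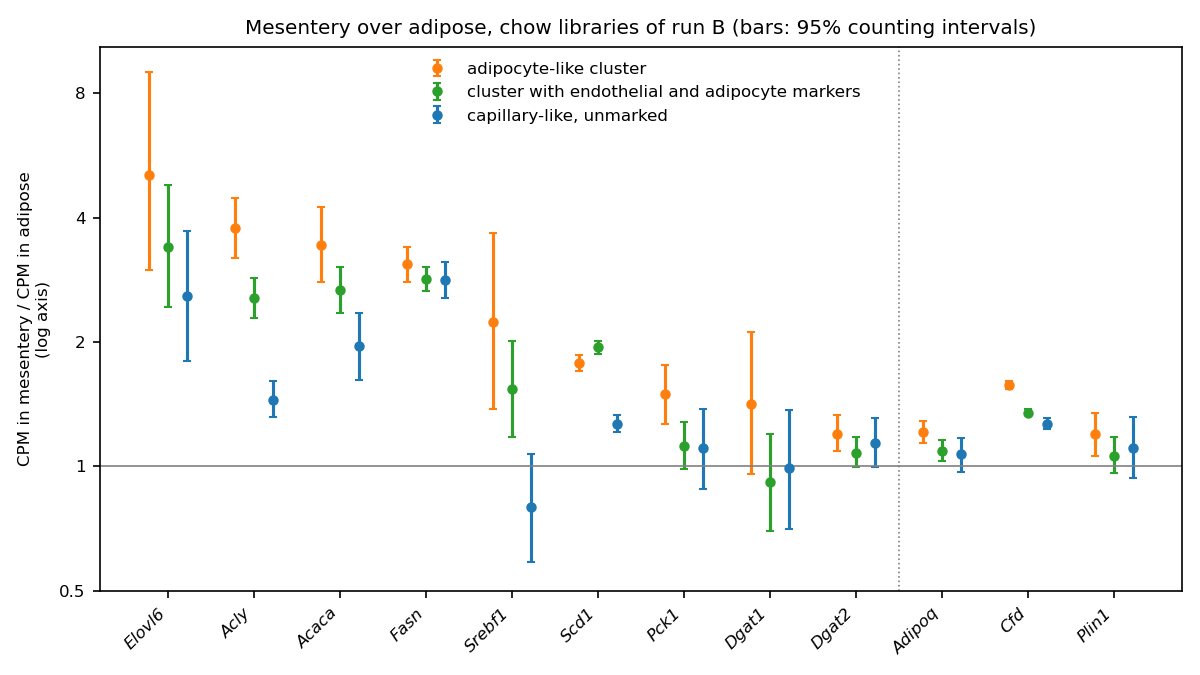
Ratio of the CPM in mesentery to that in adipose in the chow libraries of run B (log axis) for each member and, right of the dotted line, 3 adipocyte markers. Colours separate adipocyte-like cells, the cluster with both markers and unmarked capillary-like cells, and bars are 95% counting intervals. Fasn stands at 3.08, 2.84 and 2.83 in these classes, and Adipoq at 1.21, 1.09 and 1.07.

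The members were then read per count of Adipoq, which had counts in every class plotted from the chow B libraries. Pck1 lay in a narrow range. It gave 0.179 and 0.145 counts per Adipoq count in adipocyte-like cells (mesentery, then adipose), 0.196 and 0.19 in cluster 19, 0.18 and 0.173 in unmarked capillary-like cells, 0.22 and 0.182 in unmarked arterial-like cells and 0.121 and 0.142 in mural-like cells. Dgat2 ran from 0.374 to 0.626 per Adipoq count over those classes. Fasn was at 0.746 and 0.293 in adipocyte-like cells, 1.06 and 0.409 in cluster 19, 1.12 and 0.423 in capillary-like and 1.26 and 0.49 in arterial-like cells, so in each of these classes the mesentery value was the higher. Acly rose out of that range, from 0.302 and 0.0968 in adipocyte-like cells to 0.95 and 0.696 in capillary-like, 1.73 and 0.978 in arterial-like and 3.89 and 1.78 in venous-like cells. Free RNA in the droplets, joined cells and expression by the cells themselves cannot be told apart from these counts.

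**Figure D3:**
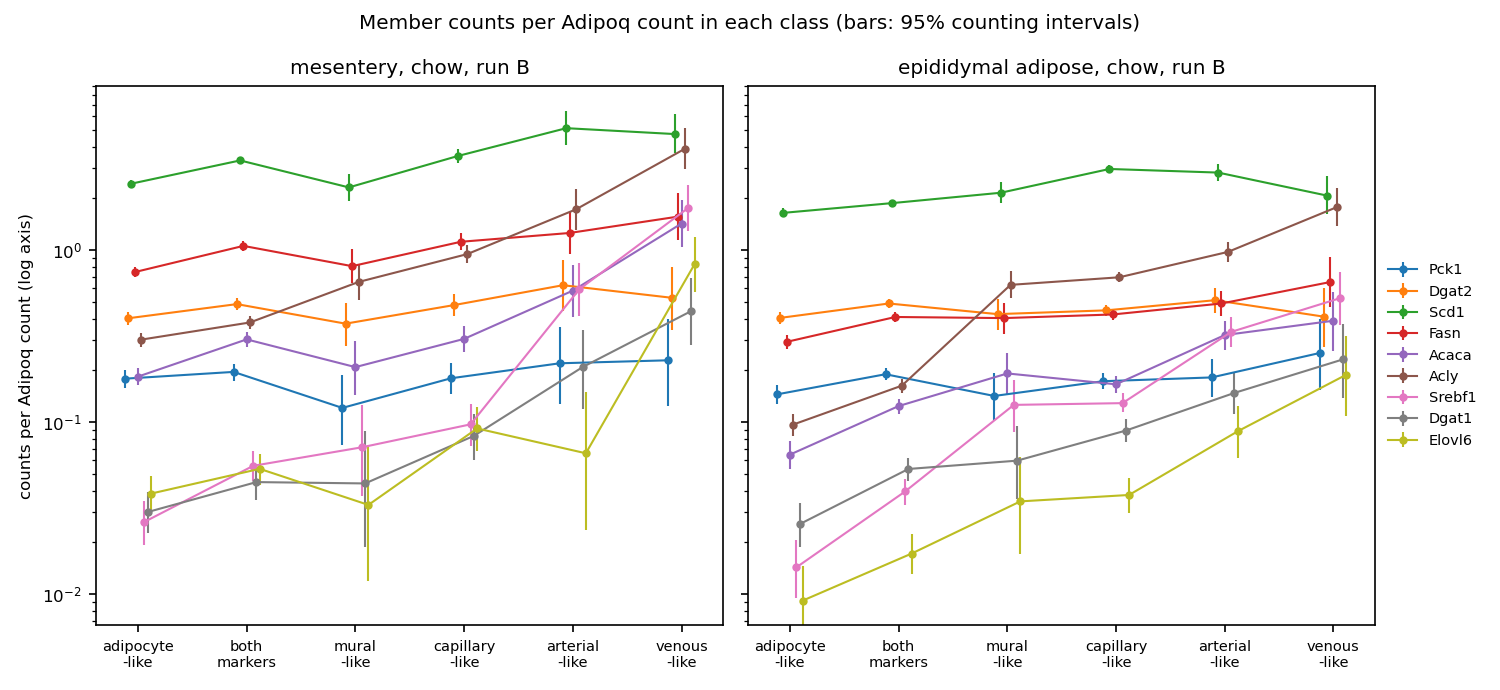
Counts of each member per count of Adipoq (log axis) by class in mesentery (left) and adipose (right) of the chow libraries of run B, with 95% counting intervals. Lines join the points of a gene. Venous-like, arterial-like and capillary-like cells are without adipocyte-marked barcodes. Pck1 stays between 0.121 and 0.253, whereas Acly goes from 0.0968 to 3.89.

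In endothelial cells as a whole, 4 members were far higher in the chow libraries of run B than in the other 6. Fasn was at 11.4 and 201 CPM in mesentery on chow (run A, run B), 8.0 and 5.12 with high fat, 7.88 and 120 in adipose on chow and 9.04 and 5.65 with high fat. Run B on chow was high in both tissues, and the other 6 libraries lay between 5.12 and 11.4 CPM. Scd1 followed with 13.3 and 646, then 5.2 and 40.8 CPM in mesentery, and 4.92 and 670, then 6.19 and 27.7 CPM in adipose. Dgat2 had 0.386 and 85.9, then 1.2 and 9.86 CPM in mesentery, and 3.94 and 132, then 3.33 and 4.08 CPM in adipose. Pck1 had 0.193 and 34.8, then 0 and 2.33 CPM in mesentery, and 0.492 and 50.4, then 0.476 and 1.36 CPM in adipose, with 0 or 1 count in each run A library. The 2 chow libraries of a group did not resemble each other in these genes, and the run A chow libraries overlapped those on high fat diet. The mix of endothelial cells differed between runs too. Capillary-like cells were 1.16% and 1.22% of the cells used on chow A (mesentery, adipose) and 19.13% and 39.65% on chow B. On high fat diet they were 1.73% and 10.12% in run A and 29.47% and 26.17% in run B. Lymphatic-like cells were 29.04% and 37.82% on chow A and 14.82% and 3.12% on chow B. The part of this mix in the summed levels and their fits was not tested.

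Adipocyte markers moved with them. Their summed level in endothelial cells was 8.4 to 38.9 CPM in run A, where 7 to 10 of the 12 were detected, and 3701 and 6056 CPM in the chow B libraries, where all 12 were. On high fat diet B it was 176 and 76.0 CPM. Leaving out adipocyte-marked barcodes, which were 10.55% of the endothelial cells of mesentery on chow B and 16.47% of those of adipose on chow B, lowered the sum to 1077 and 2704 CPM. Fasn was then 70.9 and 55.6 CPM, Scd1 214 and 362, Dgat2 26.9 and 56.5, and Pck1 10.0 and 22.4, still above each library on high fat diet and each of run A. The share of endothelial cells with a UMI of Scd1 was 32.87% and 53.19% in the chow B libraries and 0.67 to 13.88% in the others. In T cell-like cells it was 1.35% in mesentery on chow B (1 of 74 cells, median 4533 UMIs against 3598.5 in its endothelial cells) and 0% in the 6 other libraries that held at least 20. Adipose on chow B held only 6 such cells, with 9 counts of Scd1, 2 of Pck1 and 5 of Cfd, and 0 of Fasn and of Adipoq. Mural-like cells, marked barcodes included, did rise on chow B. Their Scd1 was at 640 and 447 CPM there, against 9.56 to 29.3 CPM in the other libraries with at least 20 of them. Fasn was at 223 and 83.2 CPM against 10.9 to 29.0 CPM. Macrophage-like cells had their highest Scd1 (106 CPM) and Fasn (44.3 CPM) in mesentery on chow B. With cells thinned to 1000 UMIs the endothelial share was 19.37% and 27.89% in the chow B libraries and 0.43 to 4.11% in the others.

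Acly and Srebf1 did not share that pattern. Acly was at 66.7 and 143, then 119 and 117 CPM in mesentery (chow, then high fat), and at 84.7 and 118, then 86.6 and 97.1 CPM in adipose. Srebf1 was at 20.1 and 26.9, then 10.0 and 20.1 CPM in mesentery, and at 23.6 and 26.1, then 15.2 and 24.7 CPM in adipose. Dgat1 lay between 8.86 and 20.3 CPM in all 8 libraries. Acaca reached 64.3 and 42.3 CPM in the chow B libraries and lay between 7.2 and 15.7 CPM elsewhere. Elovl6 was at 10.8 and 17.3 CPM in mesentery on chow, 3.94 and 8.21 CPM in adipose on chow and 3.0 to 4.8 CPM on high fat diet, so both mesentery libraries on chow lay above all the others.

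**Figure D4:**
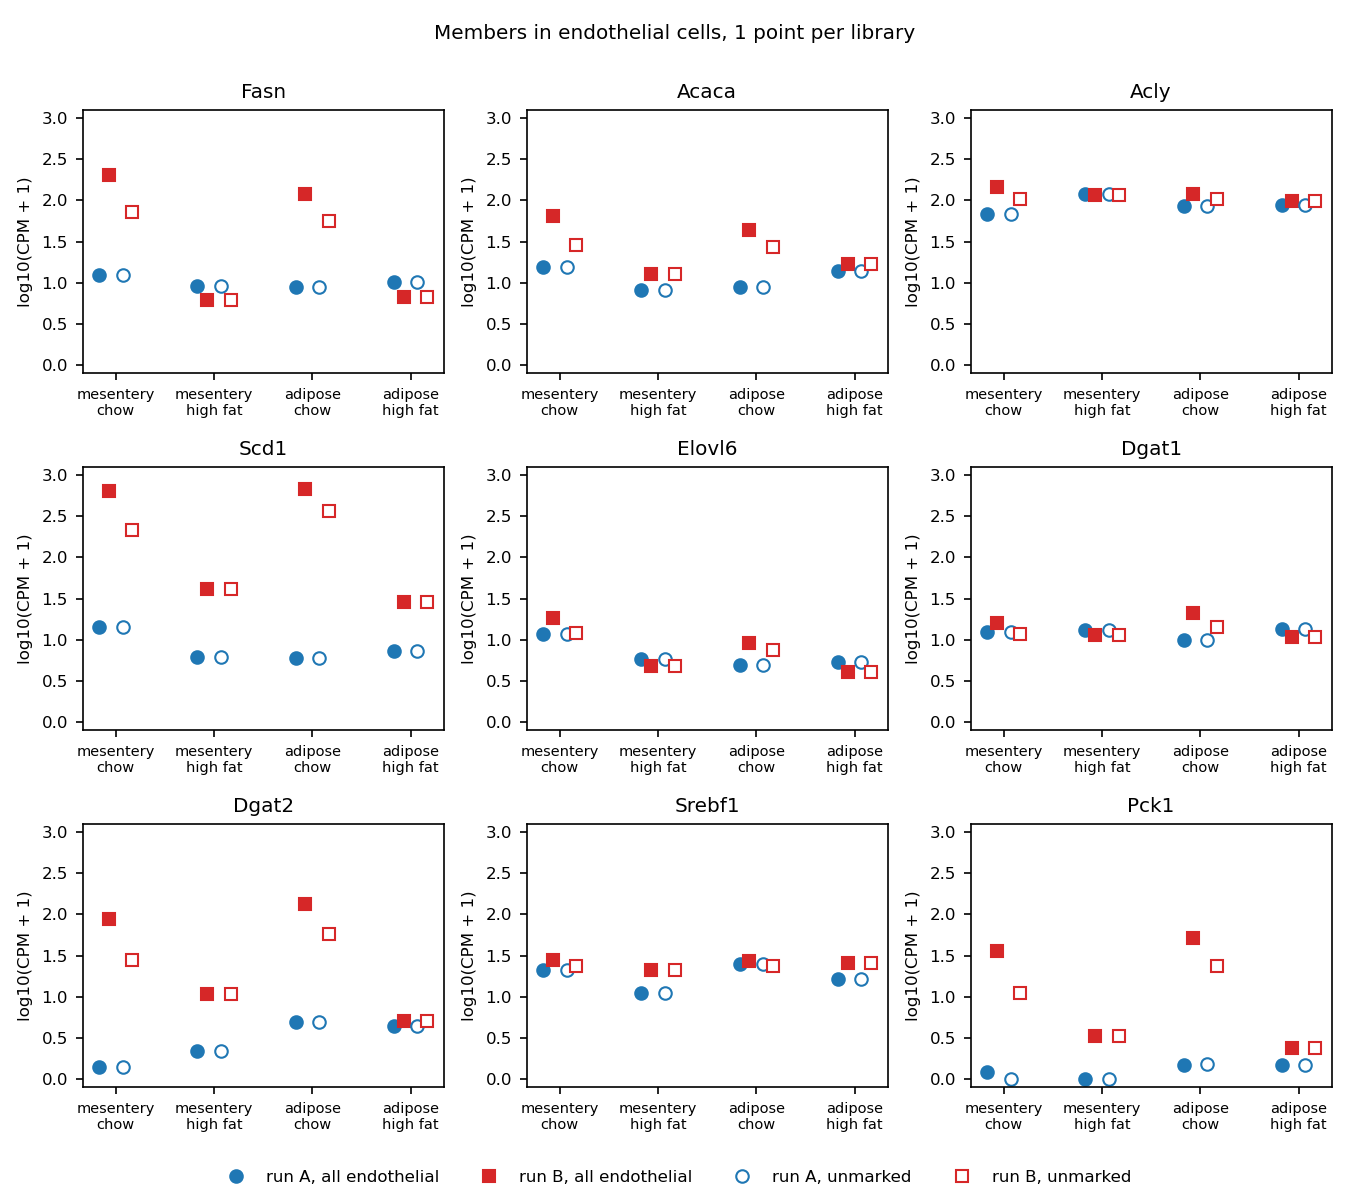
Level of each member in endothelial cells as log10(CPM + 1), with 1 point per library by tissue and diet. Colour and shape give the run, and open symbols leave out adipocyte-marked barcodes. Fasn, Scd1, Dgat2 and Pck1 stand apart in the chow libraries of run B, with Fasn at 201 and 120 CPM against 5.12 to 11.4 CPM elsewhere, and Acly stays within 66.7 to 143 CPM.

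Diet and tissue were compared over libraries, with summed counts and edgeR's quasi-likelihood test on 13227 genes. With 2 libraries a group, none of the 9 members was called in either diet comparison, in either tissue comparison or in their interaction at an adjusted p under 0.05, beside a background of 0% of all genes. At an unadjusted p under 0.05 the members gave 2 of 9 in mesentery, 0 in adipose, 1 for tissue on chow, and 0 for the interaction and for tissue on high fat diet. Of all genes, 2.25%, 0.544%, 3.49%, 0.635% and 0.65% had such a p in these comparisons. DESeq2 called no member for diet either, beside 0.0302% of genes in mesentery and 0.0151% in adipose. Fasn was lower on high fat diet by 4.0 ± 1.61 (SE) on the log2 scale in mesentery and by 3.11 ± 1.56 in adipose, both with an edgeR adjusted p of 1. Elovl6 was lower on high fat diet in mesentery (log2 change -1.73 ± 0.46, unadjusted p = 0.00902, edgeR adjusted p = 1). Acly differed by 0.18 ± 0.34 in mesentery and -0.1 ± 0.34 in adipose. All 9 fitted changes were negative in adipose and 8 of 9 in mesentery, with medians of -0.77 and -2.0 where the medians of all genes were -0.01 and -0.01.

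Run A and run B are repeats of the experiment, and libraries of a run deviated together. With run as a block, still no member was called in endothelial cells (background 0.0227% of genes in mesentery and 0.00756% in adipose). At an unadjusted p under 0.05 there were 7 of 9 members in mesentery and 3 of 9 in adipose, beside 10.2% and 3.42% of all genes, and DESeq2 with the block called none, beside 1.94% and 0.068% of genes. Pck1 came nearest, at -3.8 ± 0.55 in mesentery (edgeR adjusted p = 0.0739) and -4.97 ± 0.59 in adipose (edgeR adjusted p = 0.106). Fewer fat cells among the sorted cells and less RNA per cell cannot be told apart in these sums. None of the 45 tested genes of a 50-gene pathway list was called in endothelial cells, with or without the block.

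Arterial-like cells were tested as a class of their own, since the title of the series asks about arteries. They numbered 2653, from 68 to 689 per library. Fasn was at 0 and 61.9 CPM in mesentery on chow (0 and 121 counts), 3.7 and 2.82 on high fat diet (1 and 8 counts), 3.43 and 53.0 in adipose on chow (1 and 248 counts) and 0 and 4.85 on high fat diet (0 and 13 counts). Only the chow B libraries were high, and with 0 or 1 count each the run A libraries could not show a difference. Scd1 was at 9.94 and 251, then 18.5 and 49.3 CPM in mesentery, and at 13.7 and 320, then 33.2 and 37.3 CPM in adipose. In run A Scd1 was thus higher on high fat diet, by 1.86 times in mesentery (5 against 2 counts) and 2.42 times in adipose (9 against 4 counts). In run B it was lower, at 0.197 and 0.117 of the chow level. Dgat2 ran from 4.97 and 32.8 to 11.1 and 9.86 CPM in mesentery, and from 17.1 and 60.5 to 18.4 and 5.97 CPM in adipose.

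Without the block edgeR called none of the 8 members tested in arterial-like cells, nor any of 9378 genes (0%), while at an unadjusted p under 0.05 it gave 1 member for diet in mesentery and 2 in adipose, beside 0.576% and 0.405% of all genes. With run as a block, 4 members fell on high fat diet in adipose, beside 0.459% of all genes called. Fasn fell by 3.38 ± 0.47 (edgeR adjusted p = 0.000116), Dgat2 by 2.74 ± 0.47 (edgeR adjusted p = 0.00246), Scd1 by 2.57 ± 0.45 (edgeR adjusted p = 0.00294) and Pck1 by 3.56 ± 0.8 (edgeR adjusted p = 0.0466). In mesentery 2 members fell with the block, beside 0.533% of genes. Fasn fell there by 4.2 ± 0.52 (edgeR adjusted p = 6.08e-05) and Scd1 by 2.11 ± 0.44 (edgeR adjusted p = 0.0172), whereas Dgat2 (-1.5 ± 0.49, edgeR adjusted p = 0.387) and Pck1 (-3.79 ± 0.99, edgeR adjusted p = 0.123) did not pass. Acly had the other sign, at 0.48 ± 0.25 in adipose and 0.4 ± 0.26 in mesentery, and was not called. The diet effect of no member differed between the tissues in the interaction, where edgeR and DESeq2 called none with or without the block and none had an unadjusted p under 0.05 (background 0% without the block in edgeR and 0.064% with it). Nor was any member called between the tissues on chow.

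These calls rest on run B. With the block, DESeq2 called no member in arterial-like cells, beside 0.117% and 0.0107% of genes in mesentery and adipose, and gave 1 and 2 members at an unadjusted p under 0.05, beside 1.6% and 0.8%. No call was left without the chow B or the high fat B library of the tissue compared. For Fasn in mesentery the sign turned as well, from -4.2 to 2.49 without chow B and to 0.76 without high fat B in the fit with the block. Scd1 in adipose turned from -2.57 to 0.59 without high fat B. Summed adipocyte markers in arterial-like cells were 969 and 2429 CPM in the chow B libraries, 120 and 52.2 CPM in the high fat B libraries and 14.8 to 44.7 CPM in run A, where 2 to 5 of the 12 were detected and Adipoq was at 0 in 3 of 4 libraries. Without adipocyte-marked barcodes the chow B sums were still 902 and 1941 CPM. Fasn then stood at 59.2 and 45.6 CPM and Scd1 at 240 and 264 CPM, and with the block Fasn (-3.17 ± 0.48, edgeR adjusted p = 0.000424), Dgat2 (-2.43 ± 0.47, edgeR adjusted p = 0.00938) and Scd1 (-2.32 ± 0.43, edgeR adjusted p = 0.00653) still fell in adipose, beside 0.395% of genes. In mesentery Fasn (-4.13 ± 0.52, edgeR adjusted p = 6.12e-05) and Scd1 (-2.05 ± 0.42, edgeR adjusted p = 0.0155) still fell, beside 0.534%. In adipose Pck1 then had an edgeR adjusted p of 0.0978. The part that adipocyte RNA plays in these changes was not tested.

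**Figure D5:**
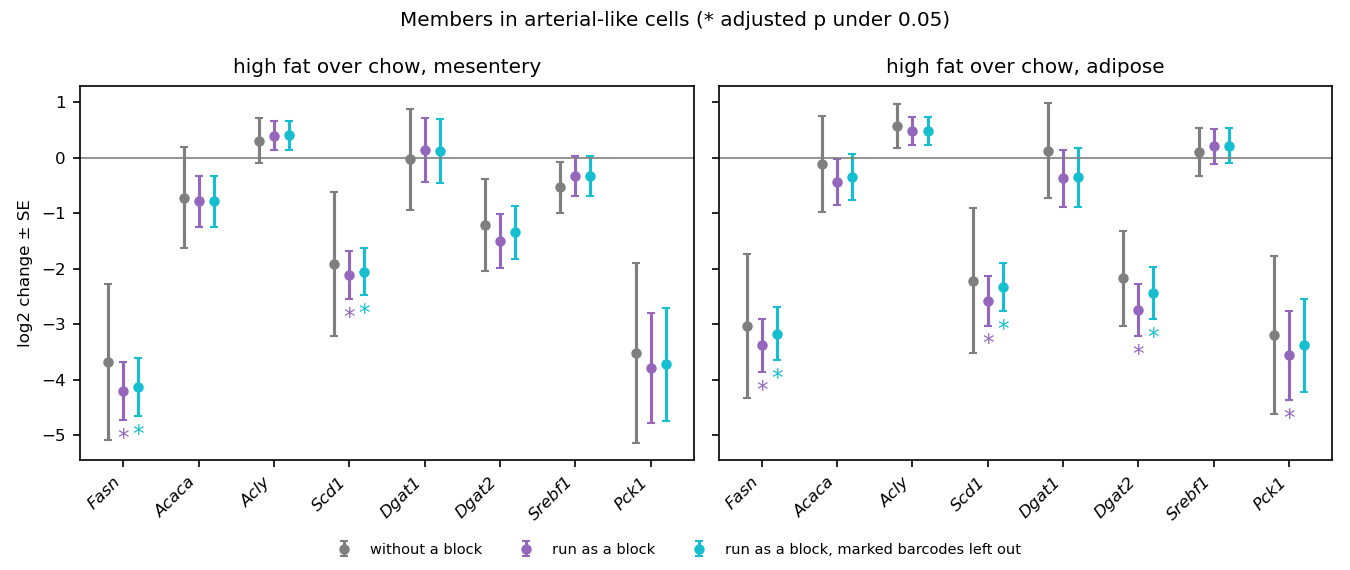
Log2 change from chow to high fat diet of the 8 members tested in arterial-like cells of mesentery (left) and adipose (right), with standard errors, from edgeR fits without a block, with run as a block and with the block and no adipocyte-marked barcodes. Stars mark an adjusted p under 0.05. With the block Fasn stands at -4.2 and -3.38, and Acly lies above 0 in both tissues.

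Lymphatic-like cells showed Fasn with little adipocyte RNA. Across the 8 libraries Fasn was at 23.0 and 29.9 CPM in mesentery on chow (30 and 127 counts), 5.86 and 10.2 on high fat diet (9 and 9 counts), 8.22 and 6.35 in adipose on chow (8 and 5 counts) and 9.38 and 9.18 on high fat diet (8 and 8 counts). Both mesentery libraries on chow lay above the other 6, in run A as in run B. The group mean was 26.4 ± 4.84 CPM (SD, n = 2) in mesentery on chow and 7.29 ± 1.32 CPM (SD, n = 2) in adipose on chow. Summed adipocyte markers were 6.16 to 15.3 CPM in run A, with Adipoq at 0, and 126 and 150 CPM in the chow B libraries of mesentery and adipose. Pck1 had 2 counts in mesentery on chow B and 0 in the other libraries, and Dgat2 had at most 2.54 CPM. Scd1 reached 9.97 and 29.1 CPM in mesentery on chow and at most 8.89 CPM elsewhere.

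These fits were added after the values had been seen, and 5 of the 9 members (Fasn, Acaca, Acly, Dgat1 and Srebf1) had enough counts to be tested. Without the block no member was called in edgeR, beside 0% of 9170 genes for diet in mesentery and 1.9% for tissue on chow, while 1 of the 5 members had an unadjusted p under 0.05 in each, beside 8.5% and 11.2% of all genes. That member was Fasn, at -1.77 ± 0.42 for diet (edgeR adjusted p = 0.205) and 1.85 ± 0.44 higher in mesentery than in adipose on chow (edgeR adjusted p = 0.0936). With the block it fell on high fat diet by 1.77 ± 0.39 (edgeR adjusted p = 0.016, beside 6.3% of genes) and was higher in mesentery on chow by 1.84 ± 0.42 (edgeR adjusted p = 0.0128, beside 9.31%). DESeq2 with the block gave adjusted p of 0.206 and 0.153 for the same comparisons, beside 3.1% and 6.1% of genes. The block's calls were absent without mesentery on chow B in both comparisons, without mesentery on high fat diet B for diet, and without adipose on chow A or B for tissue.

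Different clusters held the lymphatic-like cells of the groups. Cluster 14, led by Marco, Cd55 and Bmp2, held 108 of 449 and 434 of 729 such cells in mesentery on chow, 31 and 2 in mesentery on high fat diet and 0 in adipose. Its Fasn was at 53.7 and 38.4 CPM on chow (28 and 117 counts) and 14.3 CPM on high fat diet A (3 counts), with Elovl6 at 28.8 and 8.86 CPM on chow. In cluster 5, which is found in both tissues, Fasn lay between 0 and 9.57 CPM and had too few counts to be tested, and none of the 3 members tested there was called for diet in mesentery with the block, beside 3.21% of genes, nor had an unadjusted p under 0.05. The part of the clusters in the difference of Fasn between groups was not tested. Acly was at 101 to 144 CPM in all 8 libraries and was not called (0.43 ± 0.21 for diet in mesentery, edgeR adjusted p = 0.303).

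Genes around the members were read from the 50-gene list in 6 roles. In adipocyte-like cells of the chow B libraries (mesentery, adipose) all 7 genes of citrate supply and NADPH were higher than in unmarked endothelial cells of the same library in both tissues. Me1, which makes NADPH, was at 1087 and 341 CPM against 43.0 and 32.8, the citrate carrier Slc25a1 at 484 and 183 CPM against 30.1 and 29.6, and pyruvate carboxylase Pcx at 361 and 209 CPM against 11.3 and 13.0. Among acetyl-CoA carboxylase partners, Thrsp, a lipogenic nuclear protein, was at 5685 and 2427 CPM against 270 and 295. Of 13 genes of glycerolipid synthesis 11 and 10 were higher, among them Agpat2 at 968 and 519 CPM against 30.6 and 32.7 and Gpd1, which makes glycerol phosphate from glucose, at 396 and 201 CPM against 9.88 and 12.8. Elongation and desaturation had 3 and 4 of 11 higher, fatty acid activation 1 of 4 in each, and regulators 7 and 5 of 12. Mlxipl, the carbohydrate-sensing factor ChREBP, was at 19.1 and 14.1 CPM against 0.736 and 0.619, and at 72.6 and 41.2 CPM in cluster 19. The comparison has 1 library a side in each tissue and no test.

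Few list genes were called between groups. In arterial-like cells with the block, Cebpa, an adipocyte transcription factor, fell on high fat diet in adipose by 2.53 ± 0.55 (edgeR adjusted p = 0.0292, and 0.0672 without adipocyte-marked barcodes). It was 1 of 40 list genes tested, beside 0.459% of all genes, and DESeq2 with the block did not call it (adjusted p = 1). Pparg, the receptor that drives fat cell genes, was lower in mesentery than in adipose on chow (-1.25 ± 0.29, edgeR adjusted p = 0.0383 with the block, beside 0.736% of genes), with 19.9 and 67.1 CPM against 24.0 and 181 CPM. DESeq2 with the block did not call Pparg (adjusted p = 0.913). The run A values there differ by little, and the run B libraries are those with adipocyte markers. In lymphatic-like cells Fads1, the delta-5 desaturase of polyunsaturated fatty acids, was at 49.1 and 52.2 CPM in mesentery on chow and 1.27 to 9.38 CPM in the other 6 libraries, and was higher in mesentery on chow by 3.67 ± 0.56 without the block (edgeR adjusted p = 0.022), 1 of 37 list genes tested, beside 1.9% of all genes. With the block, 6 of 37 were higher there, beside 9.31% of all genes called. Beside Fads1 (3.69 ± 0.46, edgeR adjusted p = 0.000251) these were Gpam, which starts glycerolipid synthesis (2.36 ± 0.55), Cebpa (2.22 ± 0.62), Acsl3, which activates fatty acids (1.87 ± 0.43), Insig1, which holds SREBP in the endoplasmic reticulum (1.84 ± 0.51), and Srebf2 (1.37 ± 0.34), with edgeR adjusted p of 0.0142 to 0.0402. DESeq2 with the block called Fads1 (adjusted p = 0.000174) and none of the other 5 (adjusted p of 0.109 to 0.274), and in cluster 5 alone Insig1 (0.39 ± 0.62, edgeR adjusted p = 0.892) and Srebf2 (0.57 ± 0.45, edgeR adjusted p = 0.731) did not pass. With the same block 3 of 37 fell on high fat diet in mesentery, a share near the 6.3% of all genes called. They were Fads1 (-3.24 ± 0.4, edgeR adjusted p = 0.000909), Cebpa (-2.61 ± 0.61, edgeR adjusted p = 0.0231) and Acacb, the mitochondrial acetyl-CoA carboxylase (-1.8 ± 0.43, edgeR adjusted p = 0.0268). DESeq2 with the block called Fads1 (adjusted p = 0.000439), but not Cebpa (0.205) or Acacb (0.212).

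Genes most like each member were ranked by Pearson's r of log2(CPM + 10) over 61 sums of a class in a library, which share libraries and depth and are described without a test. Pck1 had Orm1 (0.993), Adig (0.991) and Fcor (0.982), and Dgat2 had Pck1 (0.973), Adig (0.973) and Orm1 (0.966). Fasn was nearest to Ces1d (0.929), Pck1 (0.922) and Adig (0.92), Acaca to Mrap (0.92), Orm1 (0.909) and Pck1 (0.909), and Scd1 to Cdo1 (0.866), Ces1d (0.86) and Cfd (0.848). Elovl6 had Acaca (0.758), Orm1 (0.756) and Hadh (0.752) nearest. Acly had Acadl (0.858), Immt (0.84) and Ndufs5 (0.823), Srebf1 had Aldh6a1 (0.75), Acadm (0.714) and Fdx1 (0.714), and Dgat1 had Prdx6 (0.679), Atp5c1 (0.667) and Gm45716 (0.661). Against Adipoq, r was 0.97 for Pck1, 0.96 for Dgat2, 0.89 for Fasn, 0.88 for Acaca, 0.83 for Scd1, 0.69 for Elovl6, 0.67 for Acly, 0.54 for Dgat1 and 0.43 for Srebf1. Over the 57 sums left without adipocyte-like cells and cluster 19, it was 0.94 for Pck1 and 0.9 for Dgat2, but 0.42 for Acly, 0.31 for Elovl6, 0.12 for Srebf1 and 0.04 for Dgat1.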

How the data were processed

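The deposited files hold raw UMI counts, 1 matrix of genes by barcodes for each library, which the authors had not normalized. Per the file headers, run A was made with software version 3.0.2 and run B with 5.0.0. Build mm10 and Seurat 4.3.0 are named in the submitters' processing notes, while no source used here states the annotation. The members and lists were chosen with earlier results of these data known.

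Barcodes with at least 500 UMIs, 300 genes and at most 10% mitochondrial counts were kept (23996 of 27944). This mitochondrial limit took out 22.8 to 30.8% of barcodes in run A and 5.4 to 8.8% in run B. Scrublet's automatic threshold marked 48 cells, so it was set to a rate of 0.8% per 1000 barcodes, which removed 900 cells (3.75%). The 30406 shared gene identifiers hold 99.58 to 99.93% of each library's UMIs. Cells were clustered (scanpy 1.11.5, leidenalg 0.10.2, resolution 1.0, 20 neighbours, 30 components, 2000 variable genes) after a Harmony-type correction for run, without the members and the pathway list. Of the 33 clusters, those with at least 3 markers raised 1.5-fold and a mean log2 of at least 0.5 were named, with limits set after clusters had been seen, so names may differ from the study's.

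Summed counts were tested with edgeR 4.0.16 (quasi-likelihood, TMM, filterByExpr, 8 libraries, Benjamini-Hochberg adjustment over all genes tested, called under 0.05), in R 4.3.3 with limma 3.58.1, and with DESeq2 1.42.0 as an alternative. Libraries are pools of mice, and n is 2 per group. Run letters pair libraries, because the labels describe a repeated experiment. Deviations from group means correlated within runs, with r of 0.58 to 0.75 in endothelial and 0.45 to 0.56 in arterial-like cells over 6 pairs of groups. On simulated counts for diet in adipose endothelial cells (13227 genes), the fit without a block recovered 0% of 100 genes changed 2-fold and 0% of 100 changed 4-fold. The fit with the block recovered 16% and 84%, with 7 false calls. Each simulated gene had a run effect that was the same in all groups, as the block assumes. In the data the ratio of high fat to chow differed by run, for Fasn in mesentery endothelial cells 0.703 in run A and 0.0254 in run B. The recovery rates therefore need not hold for the members. Named genes are the 9 members, list genes called with or without the block, Pck2 and Srebf2, markers, and the 3 nearest genes by correlation among genes with a mean of at least 20 CPM, over sums of at least 20 cells and 50000 UMIs. Python 3.11.15, numpy 2.4.6, scipy 1.17.1 and scikit-learn 1.9.0 were used. Counting intervals are exact and cover counting error alone.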

Additional observations from a re-analysis of the deposited data

Results flagged for a closer look

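In lymphatic-like cells the diet change of Fads1 in mesentery minus that in adipose was -4.27 on the log2 scale in the edgeR fit with run as a block (adjusted p = 0.0468). The interaction term was thus called in that fit, beside 0.284% of all genes. DESeq2 with the block called it too, at -4.36 (adjusted p = 0.0265), beside 0.665% of genes. Without the block it was not called, at -4.23 in edgeR (adjusted p = 0.939) and -4.27 in DESeq2 (adjusted p = 0.211). Fads1 was at 49.1 and 52.2 CPM in mesentery on chow and at 1.27 to 9.38 CPM in the other 6 libraries. Cluster 14, which adipose lacks, held 108 of 449 and 434 of 729 of the lymphatic-like cells of mesentery on chow, and its part in the difference was not tested. Groups of 2 libraries are too small for a test of single libraries that stand apart.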

How the results depend on the processing

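No member was called without the block under any alternative that kept the filter on low counts, all libraries left out in turn included. Over all genes, edgeR without the block on all libraries called 0% in endothelial and arterial-like cells. In lymphatic-like cells, also with 2 libraries a group, it called 0% for diet in mesentery and 1.9% for tissue on chow. Why these shares differ was not tested. A block on run, the pairing of the libraries, gave 2 members for diet in mesentery and 4 in adipose in arterial-like cells, and 1 member each for diet in mesentery and tissue on chow in lymphatic-like cells. Without the filter on low counts the fit without the block gave 1 and 2 members in arterial-like cells and 1 and 2 in lymphatic-like cells. With the block, arterial-like cells gave 2 and 4 members at a mitochondrial limit of 20%, 2 and 3 without adipocyte-marked barcodes, and 2 and 2 with the unnamed cluster 16 added. Leaving out each library in turn with the block gave 0 to 3 members for diet in mesentery and 0 to 1 in adipose in endothelial cells. In arterial-like cells it gave 0 to 4 and 0 to 4, with 0 without the chow B or high fat B library of the tissue. In lymphatic-like cells it gave 0 to 2 for diet in mesentery and 0 to 2 for tissue on chow. Over all genes, calls in endothelial cells were 0 without the block, 3, 1 and 62 with it (diet in mesentery, diet in adipose, tissue on chow), 4, 2 and 74 in DESeq2 and 256, 9 and 417 in DESeq2 with it. In arterial-like cells 0 became 50 and 43 with the block for diet, and 11 and 1 in DESeq2 with it. The cause was not tested. No share of all genes is given for the fits without the filter, at the 20% limit, with cluster 16 or with 1 library left out. Their counts of members therefore have no background beside them.

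Several changes turned sign, small ones under other choices of cells and large ones with 1 library left out. For diet in mesentery in endothelial cells Dgat1 became 0.01 and 0.01 without adipocyte-marked barcodes (no block, block) and 0.06 and 0.05 with cells chosen by markers alone. For diet in adipose Acly became 0.0 and 0.0, then 0.02 and 0.02, in the same alternatives, and Dgat1 became 0.07 with markers alone. Ranges with 1 library left out follow, without and then with the block where both changed sign. In endothelial cells of the mesentery they were -0.22 to 0.73 and -0.13 to 0.65 for Acly, -5.92 to 0.72 for Scd1, -5.1 to 3.81 and -3.03 to 0.96 for Dgat2, -10.49 to 2.73 for Pck1 and, with the block, -0.48 to 0.03 for Dgat1. In those of adipose they were -1.47 to 0.85 and -1.17 to 0.26 for Acaca, -0.28 to 0.1 and -0.22 to 0.02 for Acly, -5.69 to 1.81 for Scd1, -0.82 to 0.28 and -0.88 to 0.31 for Dgat1, -0.68 to 0.04 for Srebf1, -5.68 to 1.07 and -5.13 to 0.3 for Pck1 and, with the block, -5.03 to 0.17 for Dgat2 (lowest -5.04 without it). In arterial-like cells of the mesentery they were -4.35 to 5.32 and -4.42 to 2.49 for Fasn, -2.86 to 1.85 for Scd1 and -1.66 to 0.98 and -1.65 to 0.57 for Dgat2, and in those of adipose -8.61 to 0.04 for Fasn and -3.09 to 1.33 and -2.97 to 0.59 for Scd1. Of 36 group levels, keeping called doublets moved 0 by more than the spread between libraries, a mean over cells 1 and thinning to 1000 UMIs 17. A diet comparison in adipocyte-like cells could not be fitted. The lymphatic-like fits, cluster 16, an alternative without cluster 2, and the block joined to the mitochondrial limit were chosen after seeing the data. Depth limits run A, where arterial-like cells had 0 or 1 count of Fasn per library.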
